A study of Mus musculus with 11 samples.

Results

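Oviducts of mice given 10 µg of lipopolysaccharide (LPS), which coats Gram-negative bacteria, were compared with oviducts of control mice, miRNA by miRNA, 24 h after injection. The comparison covered 193 of the 566 mouse miRNA probes of the nCounter mouse miRNA assay. A miRNA was kept when at least 3 of the 7 lanes compared counted it above a bound, set in each lane 2 SD over the mean of its negative control probes. At the edge of this rule, 3 probes (miR-135b, miR-582-5p and miR-804) passed in exactly 3 lanes with raw counts of 40 to 101, and 11 probes with counts of 29 to 118 passed in 2 lanes and were left out. No miRNA among the 193 was below the bound in every lane of either group, and 152 were above it in all 7.

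All animals were female CD1 mice of 6 to 8 weeks, an outbred stock, whose estrous cycles were followed by vaginal cytology. The control group held 3 mice given 0 µg of LPS. The high dose group held 4 mice given 10 µg of LPS of E. coli serotype 055:B5. Injections were intraperitoneal, in phosphate-buffered saline, and were given on the day of estrus. Each lane held total RNA of the oviducts of a separate mouse. A further control mouse of the design was not analysed here. The series also held 4 mice given 2 µg, the low dose, which entered the fit as a group of their own and share their controls with the high dose. Whole oviduct mixes secretory and ciliated epithelium, smooth muscle, stroma, vessels and blood cells, so a higher or lower count cannot be assigned to more cells of a type or to more RNA per cell, and these cannot be told apart here.

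MicroRNAs are short RNAs that guide Argonaute proteins to mRNAs, mostly by pairing of the seed, bases 2 to 8 from the 5′ end, and so lower the output of those mRNAs. LPS is sensed by Toll-like receptor 4, whose signal through NF-κB raises transcription of several miRNA genes in myeloid and epithelial cells. Among these, miR-146a represses the adaptors Irak1 and Traf6 of the same pathway, and miR-155 represses inhibitors of inflammatory signalling such as Socs1. In the oviduct the epithelium meets gametes, seminal fluid and bacteria directly.

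The mature sequences below come from RefSeq (build GRCm38.p6), where 28 of the 36 miRNAs that passed the test described further on were matched by name. miR-1186, miR-126-5p, miR-151-5p, the joint probe for miR-1937a and miR-1937b, miR-2183, miR-30b, miR-30d and miR-375 were not found under their probe names. Probe names of this assay are old and mostly carry no arm, so the arm was assigned by hand to the guide strand. Capitals mark the seed. The first set shows the miRNAs with the largest rises and those known from LPS responses, with seed partners that did not pass for comparison.
miR-203-3p: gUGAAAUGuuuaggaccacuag
miR-101a-3p: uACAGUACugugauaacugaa
miR-101b-3p: gUACAGUAcugugauagcu
miR-146a-5p: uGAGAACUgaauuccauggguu
miR-146b-5p: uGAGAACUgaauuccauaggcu
miR-155-5p: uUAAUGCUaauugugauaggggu
miR-21a-5p: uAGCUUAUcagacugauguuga
miR-222-3p: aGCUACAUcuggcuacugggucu
miR-221-3p: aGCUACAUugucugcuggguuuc
miR-203-3p lies at chr12:112130927-112130948 on the plus strand, miR-101a-3p at chr4:101346957-101346977 on the minus strand, miR-146a-5p at chr11:43374435-43374456 on the minus strand and miR-155-5p at chr16:84714143-84714165 on the plus strand. miR-222-3p and miR-221-3p share a seed and lie close together, at chrX:19146901-19146923 and chrX:19146307-19146329, both on the minus strand. miR-146a-5p and miR-146b-5p share a seed and differ at 2 of 22 bases. The seeds of miR-101a-3p and miR-101b-3p are shifted by 1 base, because the RefSeq entry of miR-101b-3p starts 1 base earlier in the shared stretch.

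The second set shows families in which miRNAs with one seed rose or fell, because their partners allow a comparison at equal seed, and then the clustered miR-23a-3p and miR-27a-3p, whose seeds differ.
miR-26a-5p: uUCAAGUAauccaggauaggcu
miR-26b-5p: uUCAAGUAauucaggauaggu
miR-196a-5p: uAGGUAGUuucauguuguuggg
miR-196b-5p: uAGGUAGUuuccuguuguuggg
let-7c-5p: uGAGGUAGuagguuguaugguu
let-7a-5p: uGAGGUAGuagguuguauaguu
miR-30e-5p: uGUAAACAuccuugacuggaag
miR-30a-5p: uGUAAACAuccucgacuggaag
miR-30c-5p: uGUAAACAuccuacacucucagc
miR-322-5p: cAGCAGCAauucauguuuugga
miR-16-5p: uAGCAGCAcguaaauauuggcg
miR-23a-3p: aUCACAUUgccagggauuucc
miR-27a-3p: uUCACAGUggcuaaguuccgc
let-7c-5p and let-7a-5p differ at 1 of 22 bases, as do miR-196a-5p and miR-196b-5p, and miR-30e-5p and miR-30a-5p. No source used here says whether a probe also counted such a near-identical partner, so counts within these families are uncertain to that extent. miR-23a-3p (chr8:84208563-84208583) and miR-27a-3p (chr8:84208727-84208747) come from one cluster on the plus strand. miR-30e-5p (chr4:120772660-120772681) and 1 of the 2 genes of miR-30c-5p (chr4:120769584-120769606) lie together on the minus strand.

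Total miRNA counts were 451323 to 631334 per lane, and 98.0% to 98.5% of them fell in the 205 miRNAs tested across the series. Counts were scaled by trimmed mean of M-values (TMM) factors of 0.939 to 1.03 to the mean effective library, and these are called normalized counts. The labels number the control samples 1, 2 and 4 and the high dose samples 9 to 12. No source used here says whether these numbers are lane positions, but they followed treatment, so an effect of sample order cannot be told apart from it. Among the 4 mRNA probes, scaled to the positive control probes, B2m (the light chain of major histocompatibility class I, which interferon raises) read 689, 660 and 847 in the control mice and 5697, 884, 6161 and 4701 in the high dose mice. High dose mouse 2 stood close to the controls, although the groups did not overlap (log2 difference 2.26, two-sided exact permutation p = 0.0571 over 35 arrangements, adjusted p = 0.229, with 0.0286 the smallest p the design allows). The Actb probe was also lowest in that mouse, at 1818 against 2976, 3031 and 2976 in the other high dose mice and 2508, 2501 and 2651 in the controls. That mouse was therefore left out in turn. The change without it is given for miR-146a, and calls lost without it are named with their miRNAs.

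Of the 193 miRNAs, 20 were higher and 16 lower in the high dose mice in edgeR's quasi-likelihood test at a Benjamini-Hochberg adjusted p under 0.05, and 157 did not pass. Over all 205 tested miRNAs 18.0% passed, 10.2% higher and 7.80% lower. The changes reached from a fall of 1.37 to a rise of 1.58 on the log2 scale, with a median of -0.04 over the 193 and -0.03 over the 205, and a median standard error (SE) of 0.13. Only 7 of the 36 changed by 2-fold or more, 5 of them upwards (miR-203, miR-101a, miR-146a, miR-1902 and miR-196a) and 2 downwards (miR-375 and miR-322), and 15 changed by less than 1.5-fold. The plot of fold change against abundance shows these 7 at low to middle abundance and let-7c as the most abundant miRNA that passed.

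**Figure D1:**
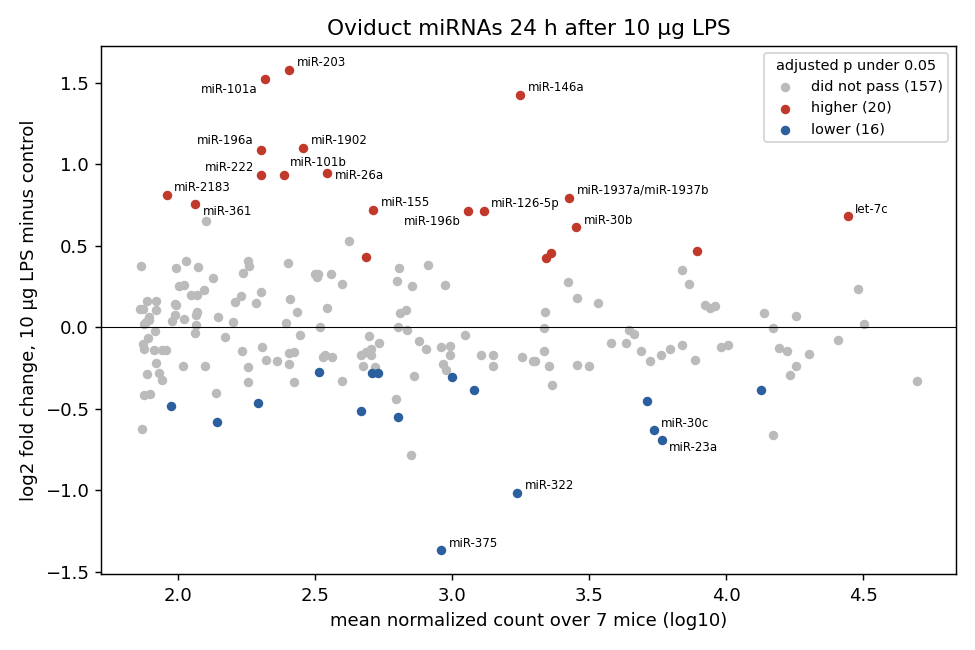
Each point is 1 of 193 miRNAs: mean normalized count over the 7 mice (x axis, log10) and log2 fold change, 10 µg LPS minus control (y axis). Red points rose (20), blue points fell (16) and grey points did not pass (157). miR-203 lies highest at 1.58 and miR-375 lowest at -1.37.

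In 35 of the 36 the values of the 3 control mice and the 4 high dose mice did not overlap. Over all tested miRNAs 27.3% showed no overlap, and choosing by the test favours it. The exception was miR-210, with 949, 568 and 812 normalized counts in the controls and 513, 501, 616 and 487 at the high dose, where high dose mouse 3 exceeded control mouse 2. High dose mice varied slightly more than controls, with a median coefficient of variation of 12.8% against 10.5%, and it was larger in them for 126 of the 193 miRNAs. A group of 3 mice tends to give a lower coefficient than a group of 4, and the 193 miRNAs share the same mice. The difference in spread was not tested. All 36 kept their direction in all of the 27 alternative analyses that gave a value. With nCounter-style scaling, to the positive controls and then to the most abundant miRNAs, 24 of 33 calls were higher. Scaling by the positive controls alone gave 15 of 17, scaling to Actb, Gapdh and Rpl19 gave 13 of 15, and scaling to all 4 mRNA probes, which include B2m, gave 0 of 2, against 20 of 36 here. Those scalings moved the median change of the 193 miRNAs from -0.04 to 0.02, 0.12, 0.12 and -0.39, so the balance between higher and lower depended on the scaling.

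4 miRNAs well known from LPS responses, miR-146a, miR-155, miR-222 and miR-21, were higher at the high dose. miR-146a counted 829, 901 and 978 in the controls and 2831, 1290.0, 2505 and 3082 in the high dose mice. High dose mouse 2 had the lowest rise, but all 4 mice lay above every control (log2 change of 1.43 with SE 0.24, adjusted p = 0.00163 in edgeR). Without that mouse the change was 1.64 (edgeR adjusted p = 1.29e-05, against 3.67e-08 to 0.176 over all alternatives). miR-155, which represses Socs1 and is processed from the Bic transcript, counted 358, 402 and 372 in the controls and 640.2, 646, 485 and 715 at the high dose. No high dose mouse overlapped the controls, and mouse 3 was lowest (log2 change of 0.72 with SE 0.13, adjusted p = 0.00174 in edgeR). The name of the miR-155 probe carries a factor of 0.022, and this factor times the POS_A control count was at or above the measured count in all 3 control lanes and in 0 of the 4 high dose lanes. If that product were background, the control level of miR-155 would not be measurable.

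miR-222, which represses the cell cycle inhibitor Cdkn1b, counted 128, 124 and 146 in the controls and 199.6, 297, 277 and 238 at the high dose. All 4 high dose mice were above the controls, with mouse 1 lowest (log2 change of 0.93 with SE 0.14, adjusted p = 0.000778 in edgeR). miR-21, which represses Pdcd4, read 6238, 6403 and 6666 in the controls and 7732, 7637, 10054 and 10236 at the high dose. Here mice 3 and 4 stood above mice 1 and 2, and all were above the controls (log2 change of 0.47 with SE 0.12, adjusted p = 0.0131 in edgeR, a call lost without control mouse 1). The low dose mean of miR-21 was 9238 ± 420 (SD, n = 4) and that of the high dose 8915 ± 1423, which differed by less than the SD of the latter.

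miR-203, which in skin represses p63 and accompanies epithelial differentiation, had the largest rise. It counted 116, 111 and 131 in the controls and 349, 308, 352 and 419.6 at the high dose. The lowest high dose mouse, at 308, was far above the highest control, at 131 (log2 change of 1.58 with SE 0.12, adjusted p = 2.85e-06 in edgeR). The fold was 2.99, and the change ran from 1.20 to 2.60 over the alternatives. Only scaling to all 4 mRNA probes took its adjusted p above the threshold, to 0.0813 in edgeR.

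The miR-101 and miR-26 miRNAs, both known repressors of the histone methyltransferase Ezh2, rose without exception (2 of 2 each). miR-101a counted 100.4, 85.2 and 114 in the controls and 286, 302, 240.0 and 324 at the high dose, with mouse 3 lowest and no overlap (log2 change of 1.53 with SE 0.18, adjusted p = 0.000141 in edgeR). miR-101b counted 175, 156 and 151 against 298, 301, 254 and 374, again with mouse 3 lowest and no overlap (log2 change of 0.93 with SE 0.15, adjusted p = 0.00105 in edgeR). miR-26a read 249.5, 202 and 237 in the controls and 439, 461, 344 and 527 at the high dose. In miR-26a, miR-101a and miR-101b alike, mouse 4 was highest and mouse 3 lowest among the high dose mice, and all lay above the controls (log2 change of 0.94 with SE 0.16, adjusted p = 0.00163 in edgeR). miR-26b counted 1722, 1812 and 1975 against 2464, 2623, 2178 and 2598, without overlap (log2 change of 0.43 with SE 0.10, adjusted p = 0.0131 in edgeR), and its change shrank to 0.10 with scaling to the 4 mRNA probes.

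let-7c, a member of the large family that represses growth genes such as Hmga2 and Lin28, was the most abundant miRNA to pass. It counted 22959, 19280.1 and 19735 in the controls and 30733, 34534, 26389.6 and 40678 at the high dose. All 4 high dose mice were above the controls, and mouse 3 was closest to them (log2 change of 0.68 with SE 0.14, adjusted p = 0.00404 in edgeR). Its share of all counts of the 193 miRNAs went from 3.62% to 6.00%. let-7c alone made up 53.6% of the 23183 mean counts by which the 20 higher miRNAs exceeded control, against 14032 mean counts by which the 16 lower ones fell short.

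A trio of the miR-30 family rose together (miR-30e, miR-30b and miR-30d). miR-30b counted 2339, 1863 and 2354 in the controls and 3097, 3560.4, 3067 and 3634 at the high dose, so every high dose mouse exceeded every control (log2 change of 0.61 with SE 0.12, adjusted p = 0.00251 in edgeR). miR-30d counted 1921, 1868 and 1923 against 2767, 2441, 2735 and 2484, a small rise with tight controls (log2 change of 0.45 with SE 0.09, adjusted p = 0.00404 in edgeR). miR-30e counted 428, 370.5 and 418 against 491, 551, 578 and 565, also without overlap (log2 change of 0.43 with SE 0.10, adjusted p = 0.0124 in edgeR, a call lost without control mouse 2).

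miR-126-5p, cut from an intron of the endothelial gene Egfl7, counted 874, 1021 and 975 in the controls and 1676, 1426, 1257 and 1912 at the high dose. No control reached the lowest high dose mouse, mouse 3 (log2 change of 0.71 with SE 0.14, adjusted p = 0.00251 in edgeR). miR-1902 counted 201, 151 and 166 against 427, 266, 315 and 481, with high dose mouse 2 nearest the controls (log2 change of 1.10 with SE 0.19, adjusted p = 0.00163 in edgeR). miR-2183 was close to the detection bound, with 65, 63.6 and 61.9 in the controls and 124, 104, 91.6 and 129 at the high dose. It was above the bound in 1 of 3 control and 4 of 4 high dose lanes, so its control level is poorly measured (log2 change of 0.81 with SE 0.15, adjusted p = 0.00244 in edgeR).

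The Hox cluster miRNAs miR-196a and miR-196b, which repress Hoxb8 among other Hox genes, also rose. miR-196b counted 601, 1066 and 842 in the controls and 1328, 1351, 1631 and 1177 at the high dose, with a wide spread of the controls (log2 change of 0.71 with SE 0.17, adjusted p = 0.0122 in edgeR). miR-196a counted 101, 166 and 102 against 187, 248, 383 and 223 (log2 change of 1.09 with SE 0.32, adjusted p = 0.0324 in edgeR). High dose mouse 3 was highest for both, and miR-196a lost its call when any 1 of these mice was left out: control 1, control 3, high dose 2, high dose 3 or high dose 4. The joint probe for miR-1937a and miR-1937b counted 2177, 1649 and 1833 against 2659, 3701, 2624 and 4113, where mice 2 and 4 stood highest (log2 change of 0.80 with SE 0.17, adjusted p = 0.00594 in edgeR). miR-361 counted 96.6, 75 and 78.5 against 100.4, 159.8, 120.5 and 181, where mouse 1 almost met the controls (log2 change of 0.75 with SE 0.24, adjusted p = 0.0428 in edgeR). Leaving out 7 of the 11 mice one at a time ended its call (any control, low dose mice 2 and 4, high dose mice 2 and 4), and it was above the bound in 2 of 3 control lanes.

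**Figure D2:**
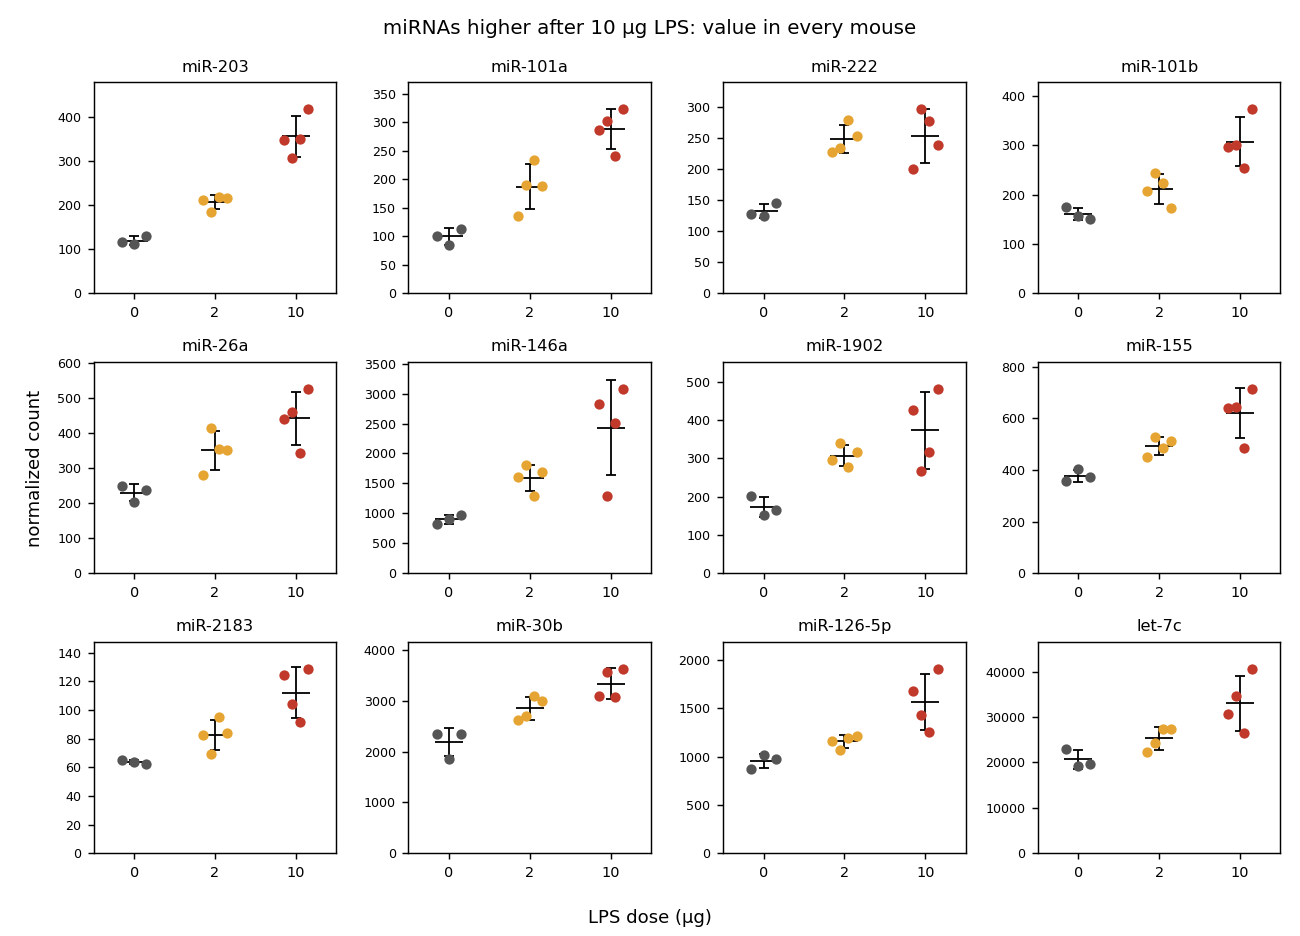
Normalized counts (y axis, from 0) of the 12 miRNAs with the smallest p among those higher at the high dose, by LPS dose in µg (x axis), 1 point per mouse, with mean and SD as line and bars. The 4 mice given 10 µg lie above the 3 controls in every panel, for miR-203 at 308 to 420 against 111 to 131.

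Among the lower miRNAs miR-375 had the largest change. miR-375, which is enriched in endocrine cells and in several secretory epithelia, counted 1446, 1376 and 1404 in the controls and 454, 373, 875 and 475 at the high dose. High dose mouse 3 kept the highest level, and no mouse overlapped the controls (log2 change of -1.37 with SE 0.27, adjusted p = 0.00305 in edgeR). The fold of control over high dose was 2.58. It passed in all 27 alternatives, and the highest adjusted p among them was 0.0194. Its SD grew from 34.9 in the controls to 225 at the high dose.

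miR-322, the mouse counterpart of human miR-424 and a miRNA with the miR-15/16 seed that represses cell cycle genes, also passed in all 27. It counted 2321, 2776 and 2213 in the controls and 1041, 1090.1, 1557 and 1128 at the high dose. Mouse 3 was again highest among the high dose mice, and the groups did not overlap (log2 change of -1.02 with SE 0.14, adjusted p = 0.000513 in edgeR). miR-542-5p, from the same X-linked cluster, counted 100.4, 139 and 100.1 against 81.6, 75.5, 82.9 and 82.5 (log2 change of -0.48 with SE 0.14, adjusted p = 0.0287 in edgeR). All its values were near the detection bound, it exceeded it in 2 of 4 high dose lanes, and its call was lost without control mouse 2, high dose mouse 2 or high dose mouse 4. miR-16, a repressor of cyclin D1 and Bcl2, counted 14572, 14846 and 17040.2 in the controls and 11359.5, 12339, 13715 and 9928 at the high dose. High dose mouse 3 lay closest to the controls (log2 change of -0.39 with SE 0.11, adjusted p = 0.0258 in edgeR), and the call was lost without control mouse 2, control mouse 3, high dose mouse 1 or high dose mouse 4.

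miR-23a and miR-27a, which share a cluster and are known from muscle and blood cells, fell together. miR-23a counted 7965, 7392 and 7021 in the controls and 4460.2, 4707, 4371 and 4929 at the high dose. The high dose mice lay close together, and the highest of them, at 4929, was far below the lowest control, at 7021 (log2 change of -0.69 with SE 0.08, adjusted p = 0.000145 in edgeR). miR-27a counted 6107, 6298 and 5789 against 5020.1, 4419, 3511 and 4761, with mouse 3 lowest and no overlap (log2 change of -0.45 with SE 0.11, adjusted p = 0.0146 in edgeR, a call lost without control mouse 2). Its low dose mean was 4241 ± 202 (SD, n = 4) and its high dose mean 4428 ± 658, which differed by less than the SD of the latter.

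miR-30c counted 6529.7, 6835 and 7147 in the controls and 4877, 4857, 4143 and 3761 at the high dose, below every control in all 4 mice (log2 change of -0.63 with SE 0.11, adjusted p = 0.00191 in edgeR). miR-301a, from an intron of Ska2, counted 596, 579.6 and 509 against 410.5, 386, 385 and 389.7. The 4 high dose mice lay within 385 to 410, below every control (log2 change of -0.52 with SE 0.09, adjusted p = 0.00193 in edgeR). miR-676 counted 212, 248 and 239 against 186, 184, 141 and 164, with mouse 3 lowest and no overlap (log2 change of -0.47 with SE 0.12, adjusted p = 0.0146 in edgeR, a call lost without control mouse 2 or control mouse 3).

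miR-151-5p, from an intron of the focal adhesion kinase gene Ptk2, counted 1336, 1479 and 1338 in the controls and 1193, 1053, 971 and 1021 at the high dose. The groups did not overlap (log2 change of -0.39 with SE 0.10, adjusted p = 0.0152 in edgeR, lost without control mouse 2). miR-335-5p, from an intron of the imprinted gene Mest, counted 145, 210.2 and 163 against 89.1, 127, 125 and 115, with a wide spread in the controls and no overlap (log2 change of -0.59 with SE 0.16, adjusted p = 0.0258 in edgeR). miR-1896 counted 355, 373 and 359 against 306, 302, 307 and 282, without overlap (log2 change of -0.28 with SE 0.08, adjusted p = 0.0258 in edgeR). miR-190b counted 581, 575 and 554 against 476, 493, 473 and 437, with mouse 4 lowest and no overlap (log2 change of -0.28 with SE 0.08, adjusted p = 0.0258 in edgeR). The last 3 are small changes or low counts. Leaving out control mouse 2, control mouse 3 or high dose mouse 4 ended the call of each, as did leaving out high dose mouse 1 for miR-335-5p and control mouse 1 for miR-190b.

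The remaining calls were weaker. miR-210, the miRNA most directly induced by hypoxia-inducible factor, stood at 777 ± 193 in the controls and 529 ± 58.8 at the high dose (log2 change of -0.55 with SE 0.17, adjusted p = 0.0394 in edgeR), and lost its call on leaving out 7 of the 11 mice one at a time (control mice 1 and 3, low dose mice 2 and 4, high dose mice 1, 2 and 4). miR-1186 stood at 599.5 ± 14.2 in the controls and 494 ± 33.2 at the high dose (log2 change of -0.28 with SE 0.08, adjusted p = 0.0343 in edgeR), and lost it for 6 of 11 mice (any control, low dose mice 2 and 4, high dose mouse 4). The probe shared by miR-17 and miR-106a, miRNAs of the growth-promoting miR-17 clusters, stood at 1121 ± 69.5 in the controls and 909 ± 89 at the high dose (log2 change of -0.30 with SE 0.10, adjusted p = 0.0460 in edgeR), and lost it for 9 of 11, all but the fits without high dose mouse 1 or 3.

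**Figure D3:**
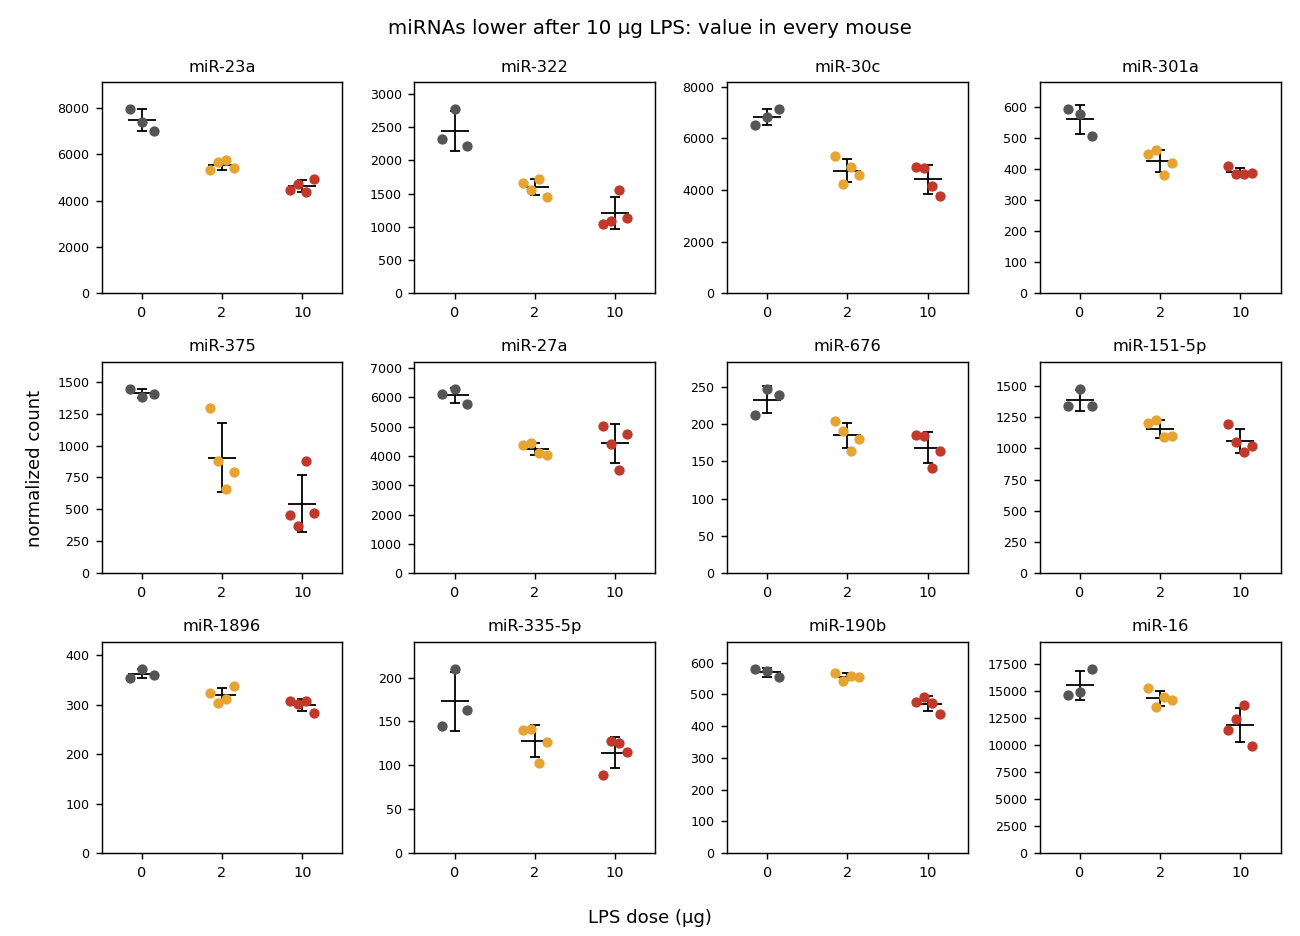
Normalized counts (y axis, from 0) of the 12 miRNAs with the smallest p among those lower at the high dose, by LPS dose in µg (x axis), 1 point per mouse, with mean and SD as line and bars. The 4 mice given 10 µg lie below the 3 controls in every panel, for miR-375 at 373 to 875 against 1376 to 1446.

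Grouped by role, 5 of 14 miRNAs listed as responsive to LPS or Toll-like receptors rose (miR-146a, miR-155, miR-21, miR-222 and miR-203), 0 fell and 9 did not pass. That is 35.7%, against 18.0% of all tested miRNAs, and the median change of the list was 0.16 against -0.03. The lists were written with earlier results of these data known, so this contrast is no independent support. With scaling to the 4 mRNA probes the median turned to -0.23. Among the 9, miR-146b stood at 348, 278 and 361 in the controls and 311, 300.0, 345 and 359.8 at the high dose, with full overlap (log2 change of -0.0017 with SE 0.11, adjusted p = 0.989 in edgeR). miR-132 stood 0.27 ± 0.21 SE above control, miR-221 at -0.24 ± 0.26 and miR-125b-5p at -0.33 ± 0.12. A further 4 listed probes were not among the 193.

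Cell type markers were counted in the same way. Of 11 epithelial miRNAs 1 rose (miR-203), 1 fell (miR-375) and 9 did not pass, among them the miR-200 family, with a median of 0.09. The share that passed, 18.2%, was near the 18.0% of all tested miRNAs. The summed epithelial level was 37173 to 39215 normalized counts in the controls and 35564 to 40491 at the high dose. Of 4 ciliated cell miRNAs (the miR-34b, miR-34c and miR-449 miRNAs) 0 passed, and their sum was 23507 to 33972 against 22580 to 28928. Of 7 smooth muscle and fibroblast miRNAs 0 passed, with sums of 54720 to 65537 against 49605 to 62134. miR-1, a miRNA of muscle, counted 934, 979.6 and 881 in the controls and 232, 415, 949 and 564 at the high dose, where mouse 3 kept the control level and the other mice were lower (log2 change of -0.78 with SE 0.33, adjusted p = 0.122 in edgeR). These sums run over several probes, whereas the detection bound applies to 1 probe. Single members can lie near it, such as miR-183, which was above it in 3 of 4 high dose lanes.

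Leukocyte miRNAs give the other cell source that could differ. Of 9 on that list 3 rose (miR-155, miR-146a and miR-21), 0 fell and 6 did not pass, with a median of -0.12. That is 33.3%, against 18.0% of all tested miRNAs, on a list of few miRNAs. The summed level was 13233 to 15372 normalized counts in the controls and 15610 to 19399 at the high dose, without overlap, and miR-21 alone supplied 6238 to 6666 and 7637 to 10236 of it. miR-146a supplied 829 to 978 and 1290 to 3082. Both had passed the test, so the sum is no separate measure of leukocyte content. The haematopoietic members of the list, miR-142-3p (log2 change of -0.17 with SE 0.16, adjusted p = 0.494 in edgeR), miR-142-5p (log2 change of -0.12 with SE 0.10, adjusted p = 0.412 in edgeR) and miR-223 (log2 change of -0.24 with SE 0.12, adjusted p = 0.185 in edgeR), did not pass. The part of leukocyte numbers in the rises of miR-155, miR-146a and miR-21 was not tested. Of 7 endothelial miRNAs 2 rose (28.6%, miR-222 and miR-126-5p), with a median of -0.02 and sums of 9518 to 11515 against 10290 to 12877. Of 3 erythroid and platelet miRNAs 0 passed, and their sum ran from 1425 to 4188 in the controls and from 2250 to 3134 at the high dose.

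By family, all of the 2 miR-26 and the 2 miR-101 miRNAs rose, 3 of 5 miR-30 miRNAs rose and 1 fell, and 2 of 6 miR-15/16 miRNAs fell (miR-322 and miR-16). Over all 205 tested miRNAs 10.2% passed as higher and 7.80% as lower. Families this small, chosen with earlier results known, do not allow a firm comparison with those shares. In the miR-15/16 family the median was -0.30, and its sum was 22386 to 25001 in the controls and 15550 to 19410 at the high dose, without overlap. That sum includes miR-16 and miR-322, which had passed, with differences of mean counts of -3651 and -1233, high dose minus control. Of the 5 miRNAs of the miR-23/27/24 clusters 2 fell and 3 did not pass, with a median of -0.21. In the let-7 family 1 of 9 rose (median 0.09), in the miR-29 family 0 of 3 passed (median 0.12), in the miR-17/92 clusters 1 of 7 fell (median -0.05), and in the miR-130/301 family 1 of 4 fell (median -0.10). Of 4 hypoxia and stress miRNAs 1 fell (miR-210). None of the 10 measured miRNAs of the imprinted Dlk1-Dio3 cluster passed, and 24 further probes of that cluster were not among the 193. The medians of the ciliated cell, miR-30, miR-15/16, miR-26, miR-101 and miR-23/27/24 lists kept their sign in the 6 scalings run, and those of the other 12 lists did not, so no direction is given for those lists as wholes.

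**Figure D4:**
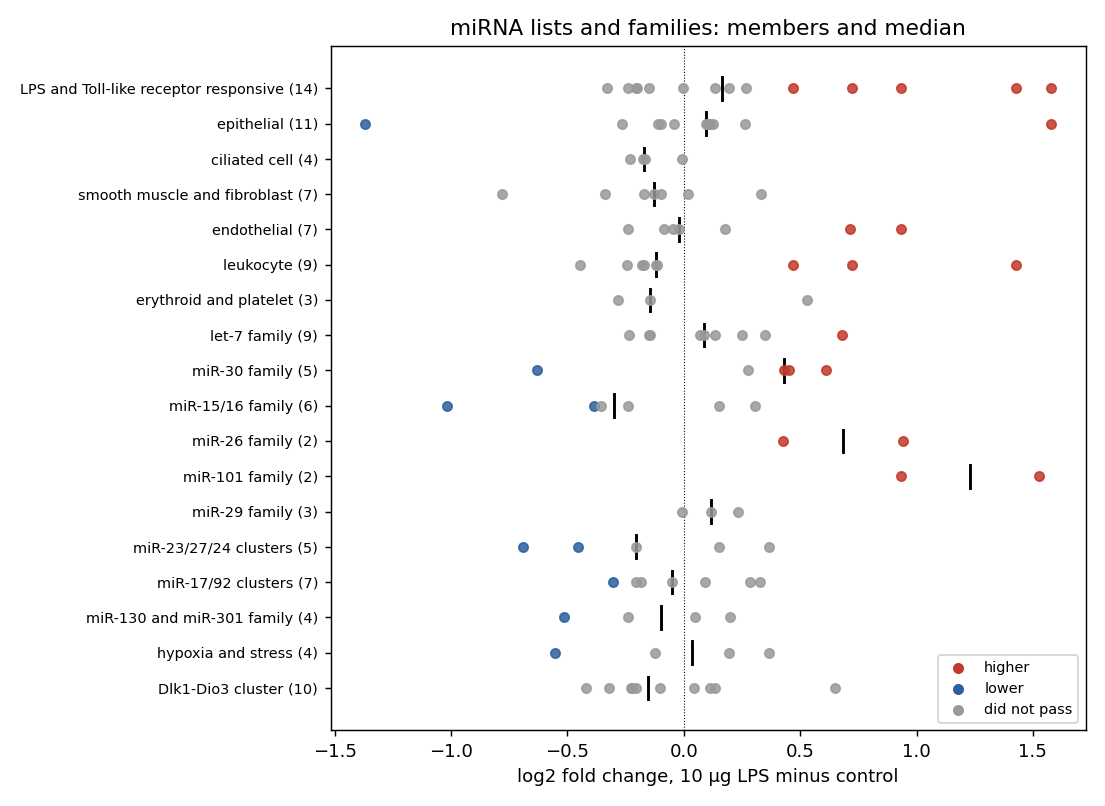
Log2 fold change, 10 µg LPS minus control (x axis), of the members of each list (y axis, number of members in brackets): red points rose, blue points fell, grey points did not pass, and the black line is the list's median. The miR-101 and miR-26 points all lie to the right, with medians of 1.23 and 0.68, and the miR-15/16 median lies at -0.30.

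Sequence relatives did not always move together. The 28 miRNAs with a sequence carried 24 different seeds. Counting partners among the 193 only where a sequence was matched, 11 of the 24 were shared, and unmatched relatives such as miR-23b and miR-301b are not in these counts. In 2 of the 11 every matched miRNA with the seed rose (miR-26a with miR-26b, and miR-196a with miR-196b). In 1 the calls went both ways, the seed GUAAACA printed above, with miR-30e higher, miR-30c lower and miR-30a not passing (log2 change of 0.27 with SE 0.12, adjusted p = 0.127 in edgeR). miR-30b and miR-30d of the same family, without a matched sequence, were both higher as given above. Of 10 matched miRNAs with the let-7 seed only let-7c passed, and let-7a, which differs from it at 1 base, stood at 13274 ± 743 in the controls and 14096 ± 1094 at the high dose (log2 change of 0.09 with SE 0.10, adjusted p = 0.542 in edgeR). miR-222 rose while miR-221, with the same seed, counted 219, 185 and 189 in the controls and 105, 224, 115 and 223 at the high dose. High dose mice 1 and 3 lay below every control and mice 2 and 4 above every control (log2 change of -0.24 with SE 0.26, adjusted p = 0.542 in edgeR). The difference between miR-222 and miR-221 was not tested.

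Genes that lie together gave both patterns. Of the 36 miRNAs 12 had a gene within 10000 bases of the gene of another of the 193. In 6 of the 12 the neighbour passed in the same direction, the pairs miR-23a with miR-27a, miR-322 with miR-542-5p, and miR-30b with miR-30d. Both partners of a pair are counted, so each pair makes up 2 of the 6. In 2 it passed in the opposite direction, miR-30c and miR-30e, which are 1 pair. Among all 205 tested miRNAs 10.2% passed as higher and 7.80% as lower, and so few pairs allow no firm comparison with those shares. miR-24, which has 1 of its 2 genes beside miR-23a and miR-27a, stood at 550.1 ± 78 in the controls and 709 ± 83.2 at the high dose and did not pass (log2 change of 0.37 with SE 0.14, adjusted p = 0.0848 in edgeR). miR-450a-5p, beside miR-322, stood at -0.06 ± 0.17 SE. Beside let-7c lie let-7b (0.07 ± 0.11 SE) and miR-99a (-0.21 ± 0.13), and beside miR-16 lie miR-15a (-0.36 ± 0.14) and miR-15b (-0.24 ± 0.11), none of which passed. Where a miRNA has 2 genes, the count does not show which gene it came from.

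The arms of one hairpin could be compared in 10 cases, of which 2 had a call on 1 arm and none on both. With 18.0% of all tested miRNAs passing, calls on both arms would be rare in 10 hairpins. Their absence therefore does not show that arms differ. miR-126-5p rose while miR-126-3p, the more abundant arm, stood at 4455 ± 627 in the controls and 4397 ± 591 at the high dose (log2 change of -0.02 with SE 0.12, adjusted p = 0.929 in edgeR). miR-151-5p fell, and miR-151-3p stood lower by a similar amount without passing (log2 change of -0.41 with SE 0.14, adjusted p = 0.0534 in edgeR). For miR-125b both arms stood lower, the 3p arm at -0.34 ± 0.11 SE and the 5p arm at -0.33 ± 0.12, and neither passed.

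The 4 high dose mice differed over the miRNAs that passed, which were chosen from these same mice, and why they differed was not tested. Over the 20 higher miRNAs the median rise above the control mean was 0.63, 0.73, 0.56 and 0.99 on the log2 scale in mice 1 to 4, and over the 16 lower ones the median was -0.45, -0.45, -0.49 and -0.52. Mouse 4 had the highest value in 14 of the 20 and mouse 3 the lowest in 10. High dose mouse 2, whose B2m was near control, was not the least changed over the higher miRNAs, and over the lower ones it lay level with mouse 1 as the least changed. It stood apart for miR-146a, with 1290 normalized counts against 2505 to 3082 in the other 3. Without high dose mouse 2, 31 of the 193 passed, 18 higher and 13 lower.

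**Figure D5:**
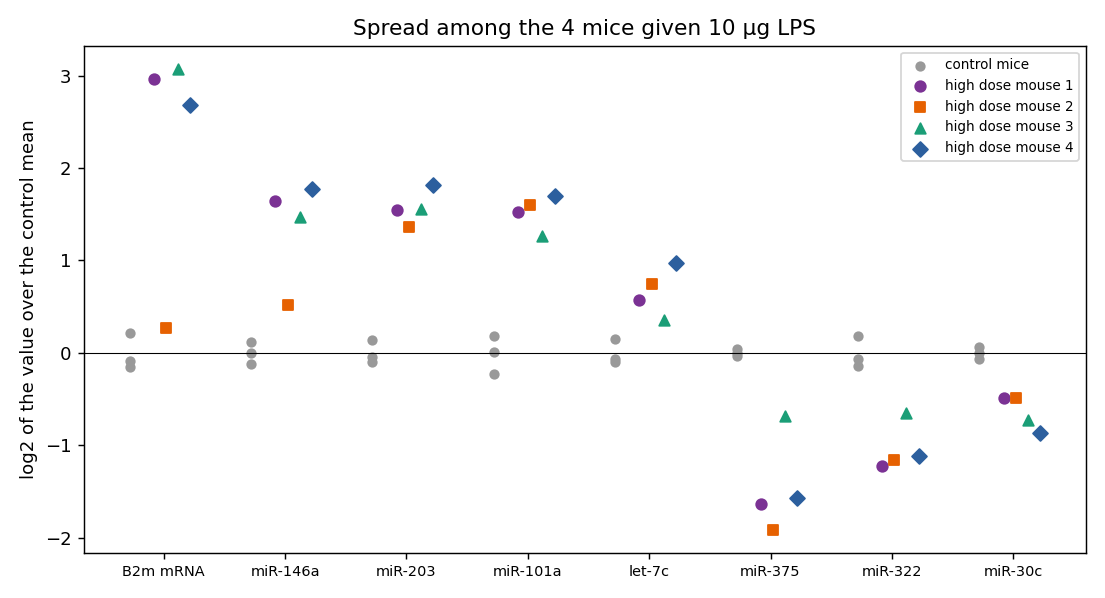
Log2 of each mouse's value over the control mean (y axis) for the B2m mRNA probe and 7 miRNAs (x axis): grey points are the 3 control mice, coloured symbols the 4 mice given 10 µg LPS. High dose mouse 2 lies lowest of the 4 for B2m and miR-146a, and high dose mouse 3 lies highest of the 4 for miR-375 and miR-322.

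None of the 5 most abundant miRNAs passed, against 18.0% of all tested miRNAs, and 5 are too few to tell these shares apart. miR-125b-5p stood at 56065 ± 4874 normalized counts in the controls and 44575 ± 6616 at the high dose (edgeR adjusted p = 0.0752), or 9.82% and 8.09% of the counts of the 193. miR-145, a smooth muscle miRNA, stood at 31481 ± 3087 in the controls and 31845 ± 4174 at the high dose. miR-29a, a repressor of collagen genes, stood at 27476 ± 2159 in the controls and 32296 ± 1664 at the high dose (log2 change of 0.23 with SE 0.08, adjusted p = 0.0683 in edgeR). miR-720, since reclassified as a tRNA fragment, stood at 26400.5 ± 1591 in the controls and 24978 ± 1096 at the high dose, and miR-34c, which multiciliated cells express, at 21342 ± 4326 in the controls and 19030.4 ± 1819 at the high dose. The 10 most abundant made up 45.3% of control counts. miR-135a, one of them, counted 16209, 21161 and 18886 in the controls and 10271, 12801, 17609 and 6704 at the high dose. Mouse 3 lay inside the control range and mouse 4 far below it (log2 change of -0.66 with SE 0.24, adjusted p = 0.0752 in edgeR).

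At the low dose, which shares the 3 control mice, all 36 stood on the same side of control, 12 passed, and 34 had the smaller change there. These 12 were all of the 193 that passed at the low dose. The 36 were chosen by their high dose change, which favours a larger change at that dose. The 34 are therefore no evidence of a gradient with dose. Mean normalized counts (± SD) without LPS, at 2 µg and at 10 µg were 119 ± 10.4, 208 ± 15.8 and 357 ± 46.3 for miR-203. miR-101a had 99.7 ± 14.2, 187 ± 39.8 and 288 ± 35.5, and miR-146a had 903 ± 74.3, 1595 ± 220.1 and 2427 ± 794. miR-375 had 1409 ± 34.9, 906 ± 273 and 545 ± 225, and miR-322 had 2437 ± 299, 1595 ± 118 and 1204 ± 238. For miR-222 the low dose and high dose means differed by less than their SD, with 133 ± 11.5, 248 ± 23.2 and 253 ± 43.1. For miR-26a and miR-155 the low dose mean lay between the others, with 229.7 ± 24.5, 351 ± 54.8 and 443 ± 75.6 and 377 ± 22.9, 493 ± 35 and 622 ± 97.4. Because both changes are taken from the same controls, the agreement in sign is not independent evidence for either.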

How the data were processed

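Total RNA from mouse oviducts was run on the nCounter mouse miRNA assay. In it, miRNAs are ligated to tags, captured by colour-coded reporter probes and counted one molecule at a time, without amplification or sequencing. The table the authors deposited holds counts per probe and lane, treated as estimated counts because a lane quality value with decimals shares the columns. All probe values were whole, and rounding changed nothing. Besides 566 mouse miRNA probes it lists 33 viral and 4 mRNA probes and the controls (6 positive, 8 negative, 6 for ligation, 3 spike-in). The sources used here give no normalization by the authors and no counting software. Columns were assigned to mice through their titles in the labels.

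From these counts, 205 miRNAs above the mean plus 2 SD of the negative controls in at least 3 of 11 lanes were scaled with TMM factors and tested by quasi-likelihood in edgeR 4.0.16 (R 4.3.3). The model had 1 term, the group, over 11 mice (3 control, 4 low dose, 4 high dose). P-values were Benjamini-Hochberg adjusted over 205, with a threshold of 0.05. The 193 reported are those above the bound in at least 3 of the 7 lanes compared. Standard errors are the absolute log2 change over the root of the F statistic. The fit was tested on simulated counts for 205 miRNAs (5 sets, 40 changed in each). It recovered 96% of changes of 1 log2 unit and 50% of changes of 0.5, and 5.19% of its calls were false. The 4 mRNA probes were divided by the geometric mean of the positive control probes of their lane and compared by two-sided exact permutation of mean log2 counts, adjusted over the 4. Total counts of 451323 to 631334 per lane limit precision mainly near the detection bound of 57.1 to 97.9 counts.

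Each mouse was counted in a separate lane. Within groups, counts differed by 18.3 to 97.9 chi-square units per degree of freedom, so no lane repeated another. Same-numbered control and high dose mice had correlations of their deviations of -0.23, -0.07 and -0.0095. Differently numbered ones ran from -0.17 to 0.24. The numbers thus gave no sign of a pairing, but so few pairs cannot exclude one. Every miRNA past the threshold could be named, with values in every mouse for the 12 with the smallest p in each direction. List members, the 5 most abundant miRNAs and arm and seed partners could be named too, and a few further values in every mouse were added after they were seen. The miRNAs, the lists and this rule were chosen with earlier results of these data known. Alternatives covered 5 other scalings, other filters, background and probe factor subtraction, DESeq2 1.42.0, limma-voom 3.58.1, the analysis of variance named in the design text, the 7 mice alone, a replicate block, and leaving out each mouse or the 3 lanes with the highest NEG_C. Sequences and gene positions came from RefSeq tables of GRCm38.p6, where 181 of 193 miRNAs had a gene.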

Additional observations from a re-analysis of the deposited data

Results flagged for a closer look

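A value was picked out when 1 of the 4 high dose mice lay far from the others, with a gap to the nearest that exceeded Dixon's critical value for its share of the whole range. Of 40 groups tested, for the 36 miRNAs that passed and the 4 mRNA probes, 3 met this, and chance alone would give about 1 in 20. For miR-322, high dose mouse 3 stood at 1557 normalized counts against 1041 to 1128 in the other 3, a gap of 0.831 of the range. It was still below every control, and miR-322 passed in each fit that left out 1 mouse. For miR-1186, high dose mouse 4 stood at 444.3 against 507.2 to 513.8, a gap of 0.905 of the range, and the call was lost without it. For the Actb mRNA probe, scaled to the positive controls, high dose mouse 2 stood at 1818 against 2975 to 3031, a gap of 0.955 of the range. That mouse also had the lowest B2m of the high dose group, and its lane had the highest detection bound of the 7 compared, 97.9 counts.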

How the results depend on the processing

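In 27 alternatives none of the 36 calls changed direction, 2 (miR-322 and miR-375) passed in all, 9 were lost in 1 and 25 in 2 or more, while 31 of the 157 other miRNAs passed in some. Leaving out each mouse gave 26 to 43 calls, 18 to 23 higher and 8 to 20 lower, against 36, 20 and 16, and 21 of the 36 passed in all 11 of these fits. Without control mouse 2, control mouse 3 or high dose mouse 4 the lower calls were 8, 9 and 8, and 24, 26 and 26 of the 36 calls remained. The number of lower calls, 16 here, was 9 with nCounter-style scaling, 6 with background subtracted, 27 in the study's analysis of variance without adjustment, 9 in the 7 mice alone and 11 without the filter. Scaling to the positive controls alone left 17 calls, 2 of them lower. Scaling to Actb, Gapdh and Rpl19 left 15 (13 higher, 2 lower), and to all 4 mRNA probes 2 (0 higher, 2 lower). The median SE grew from 0.13 to 0.22, 0.25 and 0.36 in these 3. Without the 3 lanes with the highest NEG_C (low dose mice 3 and 4, high dose mouse 2) there were 21 calls, 6 of them lower. With the replicate number as a block there were 28, 18 higher and 10 lower, of which 27 were among the 36. No source used here says that the numbers pair the mice. DESeq2 called 38 and limma-voom 36, with 34 of the 36 shared by each. The B2m difference ran from 1.98 to 2.91 without each of the mice in turn, and was 2.06 unscaled and 2.08 with TMM factors. Apart from the fewer mice or probes tested, the cause of these shifts was not tested. Counts near the detection bound (miR-2183, miR-361, miR-335-5p, miR-542-5p) limit the size of those changes.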
